A study of Gallus gallus with 2 samples.

Results

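The nuclei of the chicken thymus described here, labelled early double negative-like and called early DN-like below, were picked from 10x Genomics single-nucleus RNA libraries by the transcripts they held. A nucleus was taken when its unique molecular identifiers (UMIs, each standing for 1 captured RNA molecule) over CACNA1C, AKR1D1 and OSBPL6 summed to 3 or more and RAG1, FOXN1, PAX5 and EBF1 were all at 0. Of 10745 nuclear barcodes with at least 200 detected genes, 207 met the rule, 75 of 5171 in replicate 1 and 132 of 5574 in replicate 2. That was 1.45% of replicate 1 (exact Clopper-Pearson 95% interval 1.14 to 1.81%) and 2.37% of replicate 2 (1.99 to 2.80%), a mean of 1.91 ± 0.649% (SD, n = 2 libraries). The intervals cover counting error only and do not overlap.

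The study took flash-frozen thymus of female chickens aged 5 weeks as part of a census of immune organs, and no treatment or genotype separated its libraries. Both thymus libraries form 1 group, and the labels do not state whether they came from separate birds. Differences are therefore between classes of nuclei within the libraries. The p-values rest on the spread left between these 2 libraries once each library's own level is taken out, which may be technical. That spread is estimated largely over all genes together, so a small p-value does not show that the libraries agreed on a gene.

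The thymus is seeded from the blood by progenitors that do not yet carry CD4 or CD8 and are therefore called double negative. Signals through Notch and the interleukin-7 receptor drive them to divide and to adopt the T lineage, after which the RAG recombinase cuts the receptor genes and the cells pass to a CD4 CD8 double positive stage. As they advance, progenitor regulators such as KIT and ERG are switched off, while SATB1, the CD3 chains and the coreceptors are switched on.

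The nuclei were deeper than the rest of their libraries. Their median was 1702 UMIs in replicate 1 and 1762.5 in replicate 2, against 685 and 847 in all other nuclei, and they held medians of 993 and 1019.5 genes against 473 and 560. A sum of 3 UMIs is more easily reached in a deep nucleus, and 39.6% of the nuclei sat exactly at that sum. Scoring against simulated doublets placed 20 of the 75 (26.7%) and 19 of the 132 (14.4%) among the 6% of barcodes with the highest doublet score in their library. The 2 libraries shared 13 barcode sequences, none of them in the selected nuclei. Depth and doublets move with the selection. Values at equal depth, and results without the nuclei of high doublet score, are therefore given beside some of the results, but not beside all.

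The 3 selection genes were carried unevenly, which is a description and not a test. OSBPL6, an oxysterol-binding protein-like lipid carrier (GRCg7b chr7:15047425-15141321), had a UMI in 155 of the 207 nuclei (74.9%) and 487 UMIs in all. CACNA1C, the pore subunit of an L-type calcium channel (chr1:61191807-61664366), had a UMI in 105 nuclei (50.7%), with 589 UMIs and up to 33 in 1 nucleus. AKR1D1, a steroid 5-beta-reductase of bile acid synthesis (chr1:56595832-56629815), had a UMI in 49 nuclei (23.7%), with 139 UMIs. OSBPL6 therefore chose most nuclei, and CACNA1C gave the highest sums. The patterns of carriage were OSBPL6 alone in 94 nuclei (45.4%), CACNA1C alone in 31, AKR1D1 alone in 3, CACNA1C with OSBPL6 in 33, CACNA1C with AKR1D1 in 18, AKR1D1 with OSBPL6 in 5 and all 3 genes in 23.

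As CPM, the UMIs of a gene scaled to the same total in every class and library, CACNA1C stood at 1189 and 1459 in the selected nuclei of replicates 1 and 2 and at 24.1 and 20.02 in the other nuclei. AKR1D1 stood at 278 and 346 CPM against 4.33 and 4.52, and OSBPL6 at 1032 and 1176 CPM against 116 and 97.5. RAG1-positive nuclei held OSBPL6 at 152 and 172 CPM, above the level in all other nuclei, and CACNA1C at 19.8 and 13.1. Just inside the threshold lay 31 and 51 nuclei with a sum of 3 (median 1349 and 1483 UMIs), and just outside it 91 and 115 nuclei with a sum of 2 (median 1014 and 1392 UMIs). A further 40 nuclei, 12 and 28, reached the sum but held a UMI of an exclusion gene, which was RAG1 in 28 of them and EBF1 in 11.

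A pair of markers named for these cells, CDK6 and IL7R, lay outside the rule. CDK6, the kinase that drives exit from G1 (chr2:22606846-22740743), stood at 2070 and 2747 CPM in the selected nuclei and at 637 and 556 CPM in the others. IL7R, the interleukin-7 receptor alpha chain (chrZ:11442771-11458044), stood at 380.2 and 339 CPM against 109 and 87.7. For both genes both library sums of the selected nuclei were above both of the others. Single nuclei of the classes did overlap, with a CDK6 UMI in 20.9% and 16.6% of the other nuclei. CDK6 was higher by 1.95 ± 0.18 (log2 fold change ± SE, adjusted p = 8.1e-24) and IL7R by 1.82 ± 0.24 (adjusted p = 2.67e-12) with edgeR's quasi-likelihood method (p-values adjusted by Benjamini-Hochberg over all genes tested). They were named as markers with these data known, so the tests describe the label and give it no independent support.

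The same order held at equal depth. After every nucleus was thinned to 500 UMIs, CDK6 was detected in 54.9% and 63.1% of the selected nuclei (72.0% and 81.1% without thinning), and in 19.3% and 14.1% of the others. IL7R was detected in 15.5% and 10.0% of them (28% and 27.3% without thinning) and in 5.33% and 3.43% of the others. Thinning left out 4 and 2 selected nuclei and 1398 and 926 others as too shallow. FOXN1-positive nuclei, a thymic epithelial class that should lack both genes, held neither in 68 and 93 nuclei, with upper 95% bounds of 5.28% and 3.89% and a median depth in replicate 1 of 2460.5 UMIs.

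The selected nuclei had more selected neighbours in expression space than the other nuclei did, more so in replicate 2. Of the 15 nearest neighbours of a selected nucleus, found without the rule genes, CDK6 and IL7R, 15.7% in replicate 1 and 35.6% in replicate 2 were selected nuclei, against 0.918% and 1.49% around the others. Those are means, and the median was 6.67% in replicate 1 and 26.7% in replicate 2. Still, 23 nuclei (30.7%) of replicate 1 and 25 (18.9%) of replicate 2 had no selected neighbour at all. The search was not matched for depth, in which the selected nuclei differ from the others, and the part of depth was not tested. Nuclei with a CACNA1C or AKR1D1 UMI had 21.7% and 52.1% selected neighbours, and nuclei chosen by OSBPL6 alone had 8.95% and 15.1%.

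The first comparison set the selected nuclei against all other nuclei, as UMI sums per class and library with the library as a block. Of 10997 genes tested, 346 were higher (3.15% of those tested) and 595 lower (5.41%), 8.56% in all, at an adjusted p under 0.05, with a median log2 fold change of -0.14 over all genes. The rule keeps epithelial and B lineage nuclei out of one class and leaves them in the other, so lower genes of those cell types follow from the selection. The 2 classes also differ in depth.

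Among the genes with the largest rise stood several regulators and adhesion genes. ERG, an ETS factor of blood stem cells and early T progenitors (chr1:107658703-107811187), stood at 151 and 238 CPM in the selected nuclei and at 15.3 and 14.9 in the others, a rise of 3.63 ± 0.36 (adjusted p = 5.88e-21). TGFBR3, the betaglycan coreceptor for TGF-beta (chr8:14078489-14188389), stood at 254 and 313 CPM against 38.0 and 29.9, a rise of 3.02 ± 0.29 (adjusted p = 1.02e-22). HMGB1, a chromatin architectural protein (chr1:174950807-175004162), stood at 1605 and 2345 CPM against 369 and 290.2, a rise of 2.52 ± 0.19 (adjusted p = 2.48e-37). In each of these genes both libraries of the selected nuclei were far above both of the others.

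ABLIM1, an actin-binding LIM protein (chr6:28606107-28788420), stood at 133 and 168 CPM against 18.9 and 27.1 and rose by 2.65 ± 0.38. PARVA, a focal adhesion protein, stood at 121 and 115 CPM against 17.5 and 13.6 and rose by 2.88 ± 0.47. NRP2, a neuropilin coreceptor for semaphorins and VEGF (chr7:12280312-12361472), stood at 205 and 313 CPM against 61.9 and 64.3 and rose by 1.97 ± 0.27. In each of the 3 both libraries of the selected nuclei were above both of the others, which the rule for naming genes requires in part. PRR16 rose by 2.80, the dynamin DNM3 by 2.51, the adhesion gene MDGA1 by 2.13, and the synaptic scaffold gene RIMBP2 by 2.12.

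DDC, the aromatic amino acid decarboxylase, ANK2, an ankyrin, RIMBP2 and MDGA1 rested in part on a few nuclei. DDC stood at 296 and 182 CPM against 35.3 and 36.6 and rose by 2.62. However, 39 of its 98 UMIs (39.8%) lay in 13 of the 207 nuclei. These carried 3 or more UMIs of another cell type's marker list, namely the epithelial, macrophage, stromal, muscle or neural list. Without barcodes of that kind in either class, a comparison added after the data were seen, DDC rose by 1.88 (adjusted p = 2.5e-05 in edgeR) and ANK2 by 1.81 (adjusted p = 0.00495), while ERG rose by 3.91 and ABLIM1 by 4.14. In replicate 1, RIMBP2 went from 35 to 14 UMIs in the selected nuclei (211 to 103 CPM) and rose by 1.77, and MDGA1 went from 22 to 8 UMIs (133 to 58.9 CPM) and rose by 1.73. ANK2 was also uneven between the libraries, at 241 and 85.6 CPM, and was not called without the library block (adjusted p = 0.069). The 13 nuclei held 65 of 1081 CDK6 UMIs (6.01%), 37 of 896 of HMGB1 and 4 of 154 of IL7R.

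**Figure D1:**
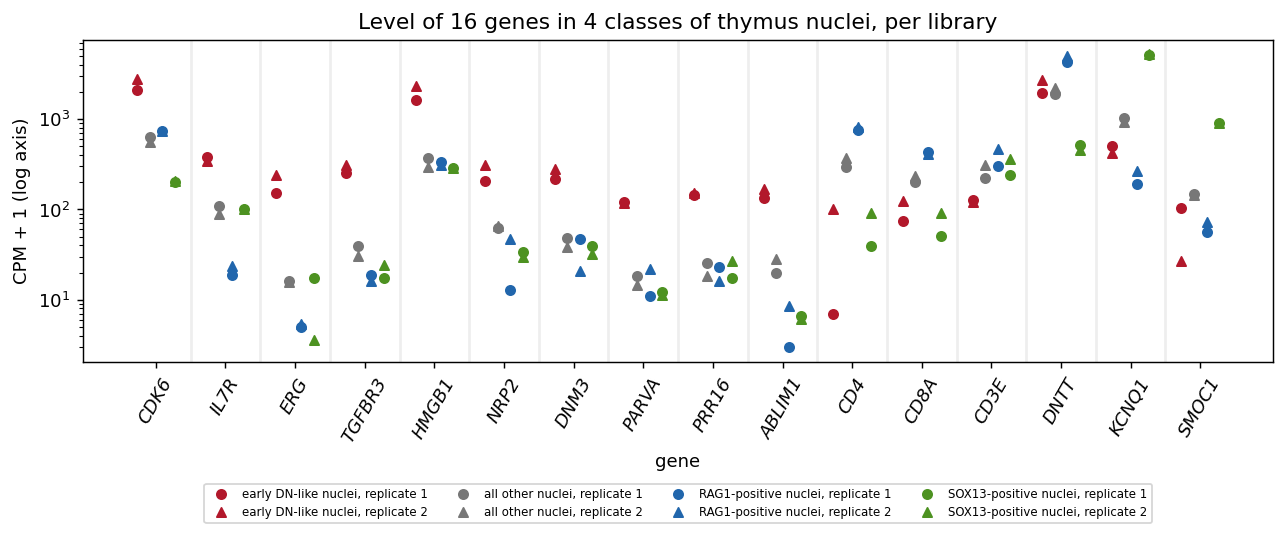
Level of 16 genes in 4 classes of nuclei: CPM + 1 on a log axis (y) for each gene (x), with 1 point per library, circles for replicate 1 and triangles for replicate 2. CDK6, IL7R, ERG and HMGB1 are higher in both libraries of the early DN-like nuclei than in any other class, CD4 and DNTT are highest in RAG1-positive nuclei, and KCNQ1 and SMOC1 are highest in SOX13-positive nuclei.

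The plot of levels by class shows these genes beside both reference classes described further on. At 500 UMIs each, HMGB1 was detected in 50.7% and 59.2% of selected nuclei against 11.6% and 8.70% of the others, and in none of the FOXN1-positive nuclei. ERG was detected in 7.04% and 8.46% against 0.568% and 0.399%. TGFBR3 was detected in 11.3% and 9.23% against 1.27% and 1.15%, and in 7.35% and 4.30% of FOXN1-positive nuclei, so its detection in the selected nuclei was not far above that in a class outside the T lineage.

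The 12 named genes with the strongest fall were all at 0 UMIs in both libraries of the selected nuclei. They were thus tested only through the other nuclei, and only a fall could be called. Measured against a floor of 3 counts over the class (6.91 CPM), the lipid transporter ABCA12 was at least 46.2-fold lower, the bone morphogenetic receptor BMPR1B at least 21.8-fold lower, and the chemokine CXCL12 at least 9.91-fold lower. NKAIN2, ADAMTSL1, OCM3, ETNPPL, PDZRN3, THSD4, NECAB1 and ARHGEF10 were lower by at least 7.93-fold to at least 16.4-fold, and WDFY4 by at least 9.31-fold. ABCA12 stood at 283 and 344 CPM in the other nuclei but at 0 and 8.72 CPM in RAG1-positive nuclei. Without barcodes of other cell types NKAIN2 and ADAMTSL1 were no longer called (adjusted p = 0.49 and 0.25 in edgeR), most of the rest were too low to test, and WDFY4 stayed lower, so the fall in most of these genes depended on those barcodes.

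Over all genes 3.15% were higher and 5.41% lower, and these shares stand beside each list count against all other nuclei. Among early progenitor genes, 4 of 16 tested were higher and 1 lower, and the list's median log2 fold change was -0.19 beside -0.14 for all genes. Besides ERG, the stem cell factor receptor KIT stood at 48.3 and 141 CPM against 20.03 and 15.7 and rose by 2.32 (adjusted p = 0.000242). In replicate 1 KIT had fewer than the 20 UMIs asked of the named genes. CD44, the hyaluronan receptor of progenitors homing to the thymus, stood at 1038 and 1348 CPM against 609.5 and 589.8 and rose by 0.93 (adjusted p = 2.31e-05). The homeobox gene HHEX stood at 72.4 and 37.2 CPM against 9.56 and 10.7 and rose by 2.30 (adjusted p = 0.0445), a call lost without barcodes of other cell types (adjusted p = 0.253).

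Other genes of multipotent progenitors did not move with these. MEF2C, which is expressed in lymphoid progenitors, fell by 3.97, from 39.6 and 31.6 CPM in the other nuclei to 0 and 3.72 CPM. MEF2C had enough UMIs to be tested only through the other nuclei, so its direction was set in part by the filter. The myeloid and early progenitor factor SPI1 had no UMI in the selected nuclei and 17.8 and 15.3 CPM in the others, and did not pass (adjusted p = 0.0818). FLT3, LMO2 and MYCN also did not pass, with at most 26.1 CPM in a library.

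Of 25 T specification genes tested, 4 were higher, 10 lower and 11 did not pass, with a median of -0.52. SATB1, a chromatin organiser of later thymocytes, stood at 833 and 815 CPM in the selected nuclei and at 3503 and 3801 in the others, a fall of 2.21 ± 0.19 (log2 -2.21, adjusted p = 5.72e-29). This was a large and even difference in both libraries, and it was called under each of the 14 other settings tried. ID3, an inhibitor of E proteins induced by receptor signals, had no UMI in the selected nuclei and was at least 6.66-fold lower. It was thus tested only through the other nuclei. IKZF3 fell by 1.40, ETS1 by 0.88 and LEF1 by 0.52.

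BCL11B, the factor that fixes T commitment, stood at 7810 and 8909 CPM against 5160 and 5053 and rose by 0.65 (adjusted p = 0.0049). RUNX1 stood at 6886 and 8823 CPM against 4862 and 5261 and rose by 0.56 (adjusted p = 0.0206). Both calls were lost when the nuclei of high doublet score were left out (adjusted p = 0.572 and 0.564), and between matched UMI counts (0.125 and 0.0994). MYB rose by 0.77 and GFI1 by 1.05, while GATA3 (278 and 346 CPM against 423 and 406) and TCF7 (3247 and 4021 against 3555 and 4829) did not pass.

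Genes of T cell receptor signalling were lower or did not pass: 0 of 25 were higher and 12 were lower, with a median of -0.97. The adaptor TRAT1 stood at 121 and 145 CPM against 567 and 527 and fell by 2.08. CD3E stood at 127 and 119 CPM against 223.5 and 312 and fell by 1.19 (adjusted p = 0.000196). CD5, GRAP2, THEMIS, CD28, FYN and PTPRC fell too, by 0.97 to 2.70.

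The coreceptors followed. CD4 (chr1:77157345-77168880) had 1 UMI in the 75 nuclei of replicate 1 and 27 in the 132 of replicate 2, or 6.04 and 100.5 CPM, against 291 and 371 CPM in the other nuclei, and fell by 2.66 (adjusted p = 8.29e-17). CD8A stood at 72.4 and 123 CPM against 202 and 235.5 and fell by 1.22 (adjusted p = 0.000441), while CD8BP did not pass. In the fit without the library block neither was called (adjusted p = 0.0817 for CD4 and 0.0811 for CD8A). Thinned to 500 UMIs, CD4 was found in 1.41% and 3.08% of the selected nuclei and in 9.30% and 16.5% of the others.

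Genes of V(D)J recombination showed no common direction, with 2 of 12 higher and 1 lower, where 3.15% and 5.41% of all genes were. RAG2, which partners RAG1, fell by 1.29 (96.6 and 26.1 CPM against 119.5 and 137), in a class chosen for the absence of RAG1 UMIs. DNTT, terminal transferase (chr6:21976196-22086355), stood at 1955 and 2695 CPM against 1891 and 2180 and did not pass (0.12, adjusted p = 0.861).

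Among cytokine and JAK-STAT genes, 3 of 23 were higher and 5 lower, where 3.15% and 5.41% of all genes were. CISH, a target of STAT5 that feeds back on cytokine receptors, rose by 2.71 beside IL7R, from 5.24 and 12.3 CPM to 42.3 and 74.5. The survival gene BCL2 stood at 2028 and 2420 CPM against 1228 and 1175 and rose by 0.83, while BCL2L1 fell by 1.52. BCL2 was not called once nuclei of high doublet score were left out (adjusted p = 0.0833).

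In the Notch list, 0 of 18 genes were higher and 3 lower, where 3.15% and 5.41% of all genes were. The higher count is near that share and says little of the list. MAML2, a Mastermind coactivator, stood at 241 and 387 CPM against 1237 and 1369 and fell by 2.12 (adjusted p = 1.07e-22 in edgeR), beside LFNG and DTX4. DTX4, with no UMI in the selected nuclei, was tested only through the other nuclei. NOTCH1 itself stood at 205 and 413 CPM against 239 and 236.5 and did not pass (adjusted p = 0.598).

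Of the lists compared, mitosis genes gave the most higher calls. Of 48 mitosis genes tested, 23 were higher and 0 lower, with a median of 0.90, and of 43 replication genes 7 were higher and 0 lower, with a median of 0.79. INCENP, of the chromosomal passenger complex, stood at 428.5 and 361 CPM against 179 and 129 and rose by 1.31. TOP2A, the decatenating topoisomerase, stood at 519 and 387 CPM against 241 and 182 and rose by 1.04, and POLA1, of DNA polymerase alpha, at 893 and 957 CPM against 537 and 511, by 0.76.

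The count of mitosis genes differed between settings. Between matched UMI counts 5 of the 48 were higher, where 2.68% of all genes were. With a threshold of 5 UMIs on the rule 3 were higher, where 1.34% of all genes were. Among nuclei labelled mitotic by this same list, added after the data were seen, 4 were higher and 1 lower, where 3.06% of all genes were higher. Both classes were there cut by the genes that are counted, so that count is no test of the list. These settings also leave fewer nuclei, and the part of depth was not tested apart from that. The label mitotic, given by 2 or more UMIs over the list, applied to 181 of the 207 (87.4%) and to 48.9% and 50.04% of the others. The bar is low and does not show that a nucleus was in mitosis, and deeper nuclei reach it more easily. At 500 UMIs each, TOP2A was detected in 19.7% and 15.4% of selected nuclei against 9.33% and 6.13%. E2F3 rose by 2.05 and E2F1 by 0.98, while CCND2 and the inhibitor CDKN1B fell by 1.76 and 0.98.

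Of 24 chromatin genes, 3 were higher and 2 lower, where 3.15% and 5.41% of all genes were. HMGB3 rose by 1.48 beside HMGB1, and the polycomb methyltransferase EZH2 stood at 652 and 856 CPM against 395 and 345 and rose by 0.97. EZH2 was not called between matched UMI counts (adjusted p = 0.247), whereas HMGB1 was called in every setting tried. The DNA methyltransferase DNMT3A and the demethylation enzyme TET1 fell by 1.02 and 0.67.

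Among the families of the selection genes few were called higher, and 3.15% of all genes were higher and 5.41% lower. In lists of this size that share gives few higher calls, so no rise or lack of one is read from them. Of 29 other calcium channel, pump and store-operated entry genes, 2 were higher and 7 lower, with a median of -0.37. ITPR1, an inositol trisphosphate receptor, stood at 1171 and 1564 CPM against 759.5 and 709 and rose by 0.83, and CACNA1B rose by 3.22 on 121 and 14.9 CPM against 3.41 and 6.94. CACNA1B had enough UMIs to be tested only through the selected nuclei, so its direction was set in part by the filter. The auxiliary subunit CACNA2D3 fell by 2.75 and ITPR3 by 2.09. Of 25 other oxysterol-binding and sterol transport genes, 0 were higher and GRAMD1B, ABCA1 and ABCG1 were lower, and of 14 other steroid and bile acid genes only CYP7B1 was higher.

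Of 12 maturation and egress genes 1 was higher and 2 lower, where 3.15% and 5.41% of all genes were. S1PR1, the sphingosine phosphate receptor used to leave the thymus, stood at 175 and 249 CPM against 106.5 and 88.5 and rose by 1.08, while CXCR4 fell by 4.12 and CCR7 by 2.88. CXCR4 had enough UMIs to be tested only through the other nuclei. Of 8 gamma delta genes, 0 were higher and SOX13, SOX5 and MAF were lower, beside the same shares of all genes.

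**Figure D2:**
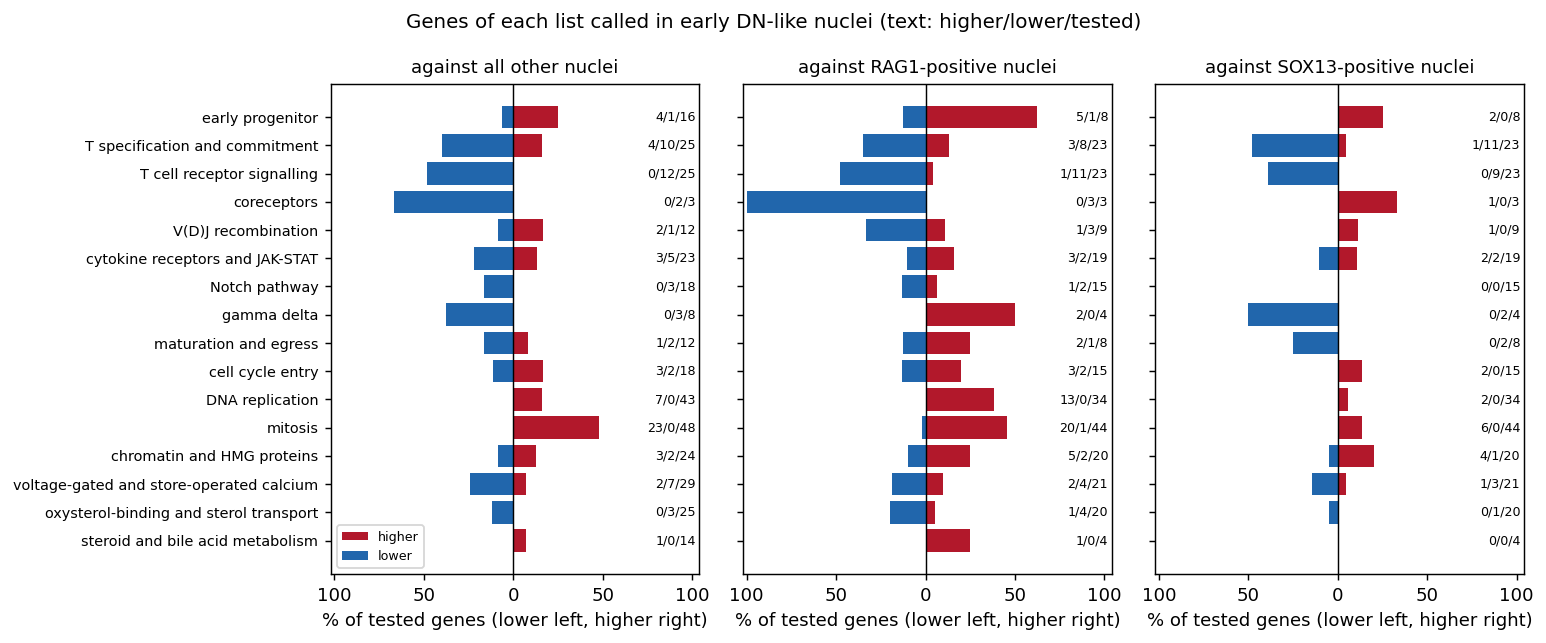
Share of each gene list called in the early DN-like nuclei (x, percent of the list's tested genes, lower to the left and higher to the right), by list (y), in 1 panel per comparison, with the counts higher/lower/tested printed at the right. Mitosis genes lie to the right against all other nuclei (23 of 48) and RAG1-positive nuclei (20 of 44), and T cell receptor signalling genes lie to the left in all 3 panels. The early progenitor bars against RAG1-positive and SOX13-positive nuclei rest on 8 genes, some of them tested only because they were high in these nuclei.

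Markers of other cell types were measured in every class. Summed over the epithelial list, the selected nuclei held 235 and 14.9 CPM against 171 and 197 in the others, over the macrophage list 66.4 and 175 CPM against 117 and 129, and over the dendritic list 639.8 and 383 CPM against 491 and 640.1. The B lineage list stood at 1255 and 1054 CPM against 1513 and 1452, and the stromal list at 169 and 142 CPM against 184 and 180. None of these sums, nor those of the NK, erythroid, muscle and neural lists, was above the others in both libraries. At 0 UMIs in the selected nuclei were 3 of 12 epithelial genes in the files, 4 of 10 B lineage, 2 of 12 macrophage, 3 of 11 dendritic, 5 of 10 NK, 6 of 7 erythroid, 5 of 14 stromal, 5 of 10 muscle and 5 of 10 neural genes, among them the haemoglobin genes HBBA and HBA1, the B cell adaptor BANK1 and the collagen gene COL1A2. In RAG1-positive nuclei, the epithelial list stood at 7.92 and 6.54 CPM, the macrophage list at 13.9 and 43.6, the dendritic list at 321 and 326 and the B lineage list at 580.0 and 724, each below the selected nuclei in both libraries. In SOX13-positive nuclei the epithelial list stood at 0 and 10.4 CPM, the macrophage list at 33.2 and 51.8 and the dendritic list at 348 and 318, also below, and the B lineage list at 2806 and 2498, above. Their part in the results was not tested beyond the fits without barcodes of other cell types. Those fits left out barcodes by the epithelial, macrophage, stromal, muscle and neural lists only. The B lineage, dendritic, NK and erythroid lists were not used for it.

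A second fit set the selected nuclei against 604 and 791 RAG1-positive nuclei and 170 and 271 SOX13-positive nuclei. The first held 1 or more UMIs of RAG1, a recombinase gene, which does not show that a nucleus was recombining. The second held 2 or more UMIs of SOX13, a gene of gamma delta T cells. All 3 classes had FOXN1, PAX5 and EBF1 at 0. The SOX13-positive nuclei, like the selected ones, also had RAG1 at 0, so the reference classes differ in RAG1 by definition. Both comparisons use the same selected nuclei and are therefore not independent of each other or of the first. The selected nuclei were deeper than both, at 1702 and 1762.5 UMIs against medians of 609.5 and 812 in RAG1-positive and 895.5 and 1109 in SOX13-positive nuclei. At 500 UMIs each, CDK6 was detected in 18.7% and 17.9% of RAG1-positive and in 8.61% and 5.49% of SOX13-positive nuclei. IL7R was detected in 0.759% and 0.456% of RAG1-positive and in 6.62% and 3.14% of SOX13-positive nuclei. The fits against these classes are not given at matched UMI counts.

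Against RAG1-positive nuclei, 509 of 6081 genes were higher (8.37% of those tested) and 503 lower (8.27%), 16.6% in all, with a median of -0.00. ERG stood at 3.96 and 4.36 CPM in RAG1-positive nuclei and was higher in the selected nuclei by 5.36 ± 0.60 (adjusted p = 5.28e-05). IL7R stood at 17.8 and 22.9 CPM there and was higher by 3.98 ± 0.30 (adjusted p = 2.98e-06), and TGFBR3 at 17.8 and 15.3 CPM, higher by 4.02 ± 0.35. Both libraries of the selected nuclei exceeded both of the RAG1-positive ones in all 3 genes.

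NAV3, a neuron navigator gene, stood at 332 and 205 CPM against 9.90 and 5.45 and was higher by 5.00. Without the 13 nuclei that held markers of other cell types it kept 18 of its 55 UMIs in replicate 1 (132 CPM), and without such barcodes in any class it was higher by 4.63. ABLIM1 was higher by 4.70, MICAL2 by 4.09, FGD4, an exchange factor for CDC42, by 4.05, RASGEF1A by 3.10, NRP2 by 3.04, DNM3 by 2.96 and PRR16 by 2.93. In RAG1-positive nuclei ABLIM1 held 1 and 7 UMIs, MICAL2 0 and 12, and FGD4 6 and 3. ERG, TGFBR3, NAV3, ABLIM1, MICAL2 and PRR16 had enough UMIs to be tested only through the selected nuclei. Their direction was thus set in part by the filter. CHGA, a granule protein of neuroendocrine cells, had the largest fitted difference (9.35), but 319 of its 346 UMIs lay in 1 nucleus of replicate 1 with 9690 UMIs, and all 346 lay in the 13 nuclei with markers of another cell type.

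Genes lower than in RAG1-positive nuclei included the coreceptors: CD4 at 754 and 806 CPM there was lower (log2 -3.83 ± 0.39, adjusted p = 2.57e-05), and all 3 coreceptors tested were lower. DTX4, a Deltex regulator of Notch signalling, had no UMI in the selected nuclei against 39.6 and 49.0 CPM and was at least 6.61-fold lower, and the lipid receptor GPR55 was at least 5.90-fold lower. SAT1, a polyamine acetyltransferase, stood at 18.1 and 108 CPM against 687 and 1084 and fell by 3.87. SLC16A6, CCDC39, the ferritin chain FTH1, CXCR4, TOB2, ARMC2, MYL10 and PNRC1 were lower too, with log2 changes from -6.10 to -3.61. DTX4, SLC16A6, CCDC39, FTH1, CXCR4, TOB2 and PNRC1 had enough UMIs to be tested only through the RAG1-positive nuclei. Their fall was thus set in part by the filter.

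Of 18 early progenitor genes in the files, 8 had enough UMIs to be tested in this fit. ERG, KIT, BCL11A and HHEX were near 0 in RAG1-positive nuclei and were tested only because they were high in the selected nuclei, so no share of the list is read from them. They were higher, as for KIT at 48.3 and 141 CPM against 5.94 and 5.45. CD44, at 491 and 508 CPM in RAG1-positive nuclei, was higher by 1.16, and HOXA7 was lower. In T specification, TOX, CBFB and BCL11B were higher and 8 of 23 genes were lower, led by ID3 and by SATB1 (5624 and 5738 CPM in RAG1-positive nuclei, log2 -2.88). BCL11B stood at 3365 and 3550 CPM in RAG1-positive nuclei and was higher in the selected nuclei by 1.17.

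For receptor signalling, 1 of 23 genes, UBASH3B, was higher and 11 were lower, among them TRAT1, GRAP2, CD3E and LCK. RAG2 fell by 2.64 and DNTT, at 4262 and 4976 CPM in RAG1-positive nuclei, fell by 1.09. Mitosis genes were higher in 20 of 44 and lower in 1, SMC4, and replication genes were higher in 13 of 34. Of 4 gamma delta genes tested, 2 were higher, RORA and TARP, and 0 lower. That list summed to 1280 and 1013 CPM in the selected nuclei and to 392 and 546 CPM in RAG1-positive nuclei. Over all genes 8.37% were higher and 8.27% lower. MAML2 stood at 2579 and 2599 CPM in RAG1-positive nuclei and fell by 3.10, and S1PR1 was higher by 2.36.

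Against SOX13-positive nuclei, 293 of 6081 genes were higher (4.82%) and 297 lower (4.88%), 9.7% in all, with a median of -0.02. CDK6 stood at 199 and 205 CPM in SOX13-positive nuclei and was higher in the selected nuclei by 3.58 ± 0.18 (adjusted p = 1.93e-07). ERG, at 16.6 and 2.59 CPM there, was higher by 4.69, ABLIM1 by 4.82 and TGFBR3 by 3.76. PTPRK, a receptor tyrosine phosphatase (chr3:58223134-58614202), stood at 700.1 and 864 CPM against 116 and 51.8 and was higher by 3.39.

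The embigin gene EMB stood at 205 and 406 CPM against 27.6 and 15.5 and was higher by 3.99. MTUS1 was higher by 4.43, PARVA by 3.47, GALNT9 by 3.19 (2.75 without barcodes of other cell types), NRP2 by 3.18, and DDC by 3.77 (3.09 without barcodes of other cell types). ERG, ABLIM1, TGFBR3, MTUS1, PARVA and GALNT9 had enough UMIs to be tested only through the selected nuclei. The filter thus set their direction in part. CHGA was again fitted as higher, on the UMIs described above.

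Lower than in SOX13-positive nuclei were the potassium channel genes KCNQ1 (501 and 417 CPM against 5060 and 5218, log2 -3.50) and KCNQ3 (log2 -6.32). SMOC1, a secreted calcium-binding protein, stood at 103 and 26.1 CPM against 911.5 and 914 and fell by 4.01, and the B and gamma delta lineage kinase gene BLK fell by 3.33. FREM1, ITM2A, PAG1, NREP, COTL1, CD82, IL20RA and DSE were lower too, with log2 changes from -4.26 to -3.31. KCNQ3, BLK, FREM1 and NREP had enough UMIs to be tested only through the SOX13-positive nuclei, so the filter set their direction in part.

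KIT, at 5.52 and 12.9 CPM in SOX13-positive nuclei, was higher in the selected nuclei by 3.26, and like ERG it had enough UMIs to be tested only through the selected nuclei. T specification had 1 higher gene, GFI1, and 11 lower of 23. GATA3, a regulator of T specification, stood at 1265 and 1405 CPM in SOX13-positive nuclei and was lower in the selected nuclei (log2 -2.09). DNTT, at 514 and 453 CPM there, was higher by 2.28, and the CD8 gene CD8BP by 1.29. CD4 stood at 38.7 and 90.6 CPM in SOX13-positive nuclei and did not pass (log2 -0.20, adjusted p = 0.891 in edgeR). CD8A, at 49.7 and 90.6 CPM there, did not pass either (log2 0.43, adjusted p = 0.572 in edgeR). Low CD4 and CD8A were thus shared with that class. TARP, a T cell receptor gamma transcript, stood at 706 and 789 CPM against 2149 and 2083 and was lower (adjusted p = 4.63e-05). Receptor signalling had 0 higher and 9 lower of 23, mitosis 6 higher of 44 and replication 2 higher of 34. Over all genes 4.82% were higher and 4.88% lower, so the replication count was near the share of all genes.

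Placed side by side, CDK6, IL7R, ERG, TGFBR3, ABLIM1 and NRP2 were higher than in both reference classes. Of these, ERG, TGFBR3 and ABLIM1 were tested only through the selected nuclei, so their direction was set in part by the filter. DNTT was lower than in RAG1-positive and higher than in SOX13-positive nuclei, and BCL11B passed against RAG1-positive and not against SOX13-positive nuclei. Whether the 2 differences differed from each other was not tested.

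The levels of several genes followed the selection sum, among nuclei with RAG1, FOXN1, PAX5 and EBF1 at 0. Mean ERG was 10.6 CPM at a sum of 0, 14.8 at 1, 29.0 at 2, 71.4 at 3 to 4, 207 at 5 to 9 and 499 at 10 or more. Mean HMGB1 went from 282 CPM at 0 to 1087 at 2, 2024 at 5 to 9 and 2412 at 10 or more, and mean PTPRK from 122 to 480.0, 826 and 1096. Each rose from bin to bin in the mean over both libraries. HMGB1 and PTPRK were above the level at 0 in both libraries at sums of 1 and 2, whereas ERG in replicate 1 stood at 11.6 CPM at 0, 12.1 at 1 and 9.47 at 2.

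**Figure D3:**
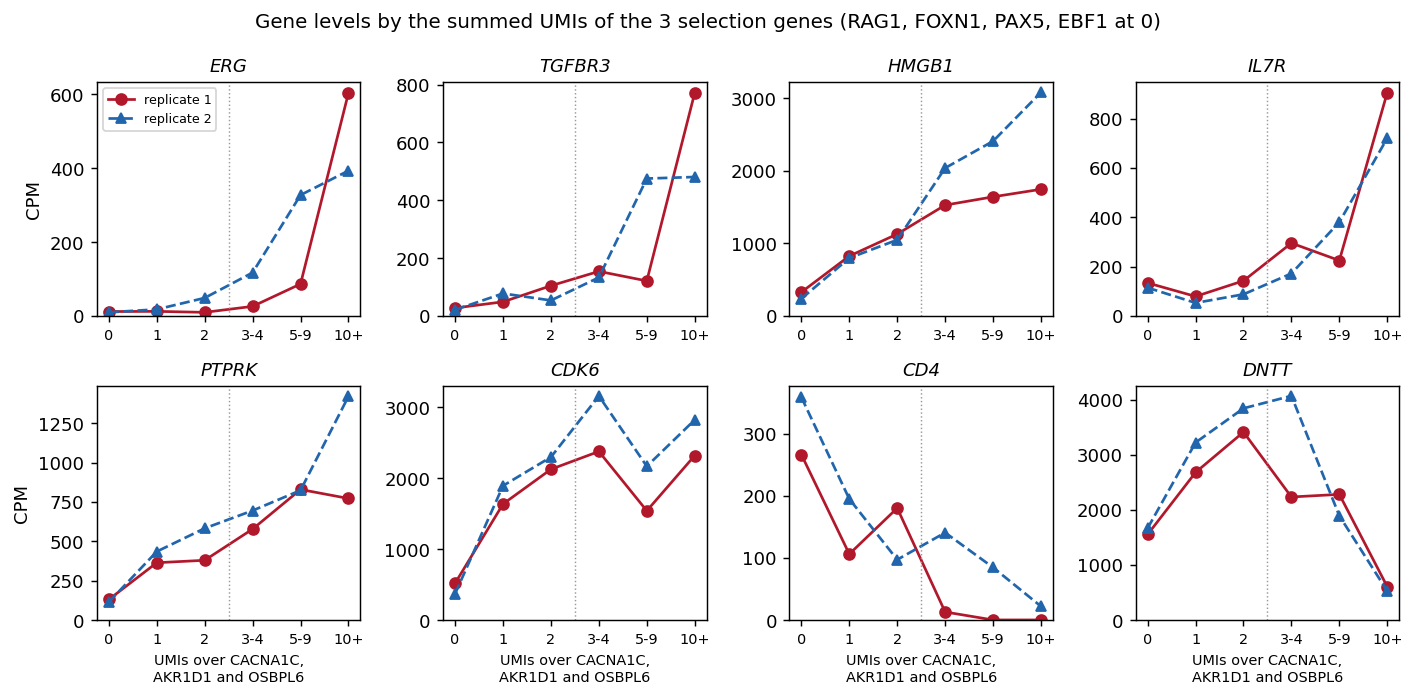
Level of 8 genes (y, CPM, linear axis) by the summed UMIs over the 3 selection genes (x, bins from 0 to 10 or more), 1 line per library, with the selection threshold dotted. ERG, TGFBR3, HMGB1 and IL7R are highest in the last bin in both libraries, CD4 is highest at 0, and DNTT falls to 564 CPM in the last bin.

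CDK6 behaved otherwise, at 443 CPM at 0, 1761 at 1, 2208 at 2 and between 1850 and 2763 above that. The last bin of replicate 1 included a nucleus with 9690 UMIs, no CDK6 UMI and markers of another cell type. Without such nuclei, CDK6 in the last bin stood at 3429 and 2880 CPM, in place of 2315 and 2818, on 6 and 12 nuclei. The other bins are not given without them, so a level course of CDK6 is not read from these values. IL7R stood at 124 CPM at 0, 65.6 at 1, 115 at 2 and 813 at 10 or more. CD4 went from 312 CPM at 0 to 10.9 at 10 or more, and DNTT from 1609 at 0 up to 3625 at 2 and down to 564. The last bin rests on 7 and 14 nuclei, and nuclei with high sums were deeper, with medians of 3451 and 3116.5 UMIs. The plot of levels by selection sum gives both libraries, which differ for TGFBR3 and ERG in the 5 to 9 bin.

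The nuclei were not uniform. Split by what they carried, a division made after the values were seen and so described without a test, 113 (54.6%) had a CACNA1C or AKR1D1 UMI and 94 were chosen by OSBPL6 alone. ERG stood at 230.1 and 356 CPM in the first and at 16.3 and 48.7 in the second, IL7R at 499 and 506 against 179 and 68.2, and ABLIM1 at 211 and 247 against 0 and 39.0. The OSBPL6-only nuclei lay near the level of the other nuclei for these 3 genes in at least 1 library.

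The reverse held for genes of later stages. DNTT stood at 738 and 1006 CPM in nuclei with CACNA1C or AKR1D1 and at 4022 and 5426 in OSBPL6-only nuclei, the latter close to the 4262 and 4976 of RAG1-positive nuclei. CD4 stood at 0 and 36.2 CPM against 16.3 and 205, and CD8A at 28.8 and 84.4 against 147 and 185. CDK6 was shared, at 1803 and 2633 CPM and at 2524 and 2932, as was HMGB1 at 1726 and 2856 and at 1400 and 1520. The summed mitosis list was at 9129 and 10200 CPM with CACNA1C or AKR1D1 and at 15140 and 12120 with OSBPL6 alone. Part of the gap in replicate 1 came from nuclei with markers of other cell types. Without them the list stood at 11670 and 10050 CPM with CACNA1C or AKR1D1. Among OSBPL6-only nuclei of replicate 1, 1 nucleus with stromal markers held 197 of the 930 UMIs of the list.

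**Figure D4:**
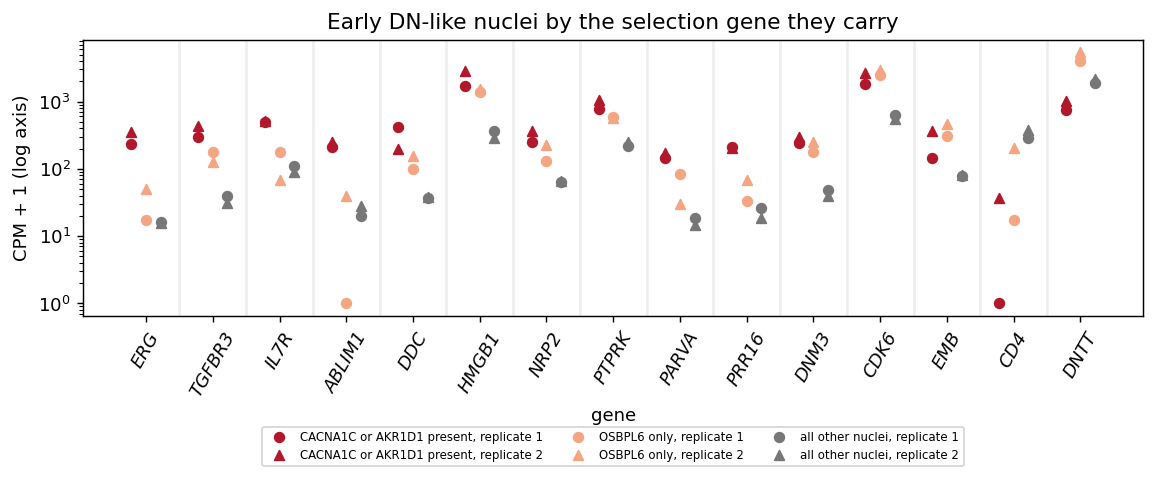
Level of 15 genes (y, CPM + 1, log axis) in early DN-like nuclei with a CACNA1C or AKR1D1 UMI, in those chosen by OSBPL6 alone and in all other nuclei, 1 point per library. ERG, IL7R and ABLIM1 are highest with CACNA1C or AKR1D1, DNTT is highest in OSBPL6-only nuclei at 4022 and 5426 CPM, and CDK6 and HMGB1 are above the other nuclei in both.

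When the nuclei with CACNA1C or AKR1D1 alone were set against all other nuclei, a fit added after the data were seen, 2 of 48 mitosis genes were higher and 10 of 25 receptor signalling genes lower. Over all genes that fit called 1.54% higher and 3.23% lower, against 3.15% and 5.41% with all selected nuclei. The calls for BCL11B (adjusted p = 0.393 in edgeR), RUNX1 (0.477), MYB (0.216) and GFI1 (0.885) were lost there, and those for ERG, KIT, CD44, SATB1 and CD4 held. That fit has fewer nuclei, so fewer calls are also a matter of its size.

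Set against its label, the class had higher CDK6, IL7R, ERG, KIT and CD44 and lower CD4, CD8A and CD3 chains than all other nuclei. CDK6 and IL7R were named as markers with these data known, and KIT rested on few UMIs in replicate 1. Of 16 early progenitor genes tested, 11 did not pass and MEF2C, tested only through the other nuclei, was lower. The list median was -0.19 beside -0.14 for all genes. SPI1, FLT3 and LMO2 of earlier progenitors were at or near 0. CD4 and CD8A did not pass against SOX13-positive nuclei, nor against all other nuclei without the library block. Within the class, OSBPL6-only nuclei had less ERG and IL7R and more DNTT than the rest in both libraries, and the split is not given for KIT and CD44.

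By cell cycle label, 64 and 117 nuclei were mitotic by the low bar above, 7 and 14 replicating by 2 or more UMIs of the replication list, and 4 and 1 neither. Of 308 genes tested outside both lists, 0 were higher and 12 lower (3.9%) in mitotic nuclei than in those with neither, with 81 at an unadjusted p under 0.05, and 0 differed between replicating nuclei and those with neither (0.0%), by edgeR or DESeq2, with 31 at an unadjusted p under 0.05. Of the 5354 UMIs in the 4 nuclei of replicate 1 with neither label, 3751 lay in 1 nucleus that held 25 epithelial marker UMIs. With 1 nucleus in the smallest class of replicate 2 besides, these counts say little.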

How the data were processed

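Nuclei of flash-frozen thymus were counted with the Cell Ranger 7.0.1 pipeline against GRCg7b, per the submitters' processing notes, and the deposited matrices, whose names refer to CellBender, hold UMI counts per gene and barcode. They list 6564 barcodes with 4826743 UMIs in replicate 1 and 6050 with 6570941 in replicate 2, of which 1393 and 476 had under 200 genes and were left out. Of 28951 genes listed, 12907 have a symbol, and genes without one were tested but not named. Removal of background RNA before deposit, where it was done, lowers the UMIs of a gene in nuclei that do not express it. The strand setting of the counting is not given in the sources used here, so overlapping genes are uncertain.

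The selection and the gene lists were chosen with earlier results of these data known. UMIs were summed per class and library (165687 and 268618 in the selected nuclei, 4393424 and 6194804 in the others). In such sums fewer nuclei with a transcript and less of it per nucleus cannot be told apart. The sums were tested with edgeR 4.0.16 (R 4.3.3; TMM scaling, filterByExpr, glmQLFit, glmQLFTest, two-sided, Benjamini-Hochberg over all genes tested) with the library as a block, because both sums of a library share that library, and with 4 sums that leaves 1 residual degree of freedom. The estimate of spread is shared over genes, so neither a small p-value nor a small SE shows that both libraries agreed. CHGA stood at 1968 and 74.5 CPM in the selected nuclei and at 10.2 and 103 CPM in the others, opposite in direction. Its adjusted p in edgeR was 1.77e-30. The 7 rule genes, and SOX13 in the second fit, were not tested. DESeq2 1.42.0 was an alternative. The fits were run on simulated counts with 1 fixed spread and no differences between libraries beyond their size. That setting cannot check the p-values of these 2 libraries. Named genes were the 12 with the largest and the 12 with the smallest log2 fold change per comparison among those past an adjusted p of 0.05, with the same direction in both libraries and at least 20 UMIs in the higher class of each. Further list genes were named after their values were seen. Doublet scores came from 2 simulated doublets per barcode, over 30 principal components of 2000 variable genes (scikit-learn 1.9.0, Python 3.11.15), and barcodes with high scores were kept except where stated. Positions are from the RefSeq table of GRCg7b, in which 70 of 70 symbols looked up matched. No sequence is printed.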

Additional observations from a re-analysis of the deposited data

How the results depend on the processing

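Against all other nuclei 941 genes were called with the settings reported, 249 with DESeq2, 287 without the block, 459 with a rule threshold of 5 UMIs and 524 among nuclei with CACNA1C or AKR1D1, the last chosen after seeing the data. All 249 and all 287 were among the 941, and the other settings gave 656 to 1195. Without the exclusion genes 53.8% of calls were higher, and with DESeq2 49.0%, against 36.8%. Against RAG1-positive nuclei DESeq2 called 457 in place of 1012 (804 without the block), and against SOX13-positive nuclei 277 in place of 590 (462 without the block). Between mitotic nuclei and those in neither state, 12 genes were called, all lower. In either direction 6 were called with DESeq2 (5 of the 12 among them), 22 with RLE scaling, 19 at a minimum of 400 genes (6 of the 12 among them), where replicate 2 has 0 nuclei in neither state and that sum was left out, and 0 with nuclei of high doublet score left out, with no filter on low counts or without the block. The share of nuclei, 1.91%, was 2.56% at 400 genes, 3.82% at a threshold of 2, 0.791% at 5 and 1.05% with CACNA1C or AKR1D1, and 1.45 to 2.37% by single library. Thinned to 300 UMIs, CDK6 was detected in 41.8% in place of 59.0% and IL7R in 8.83% in place of 12.7%. Thinning deeper lowers detection by construction, and other rule settings change the nuclei compared. The cause of the other shifts was not tested. Against all other nuclei, the 12 named higher genes, CDK6 and IL7R kept their call in all settings run, except ANK2 without the block. No named gene reversed; of 753 calls shared with the fit without exclusion genes 1 did, CD74, a gene of antigen presentation. A library left out leaves no test of calls. Depth limits genes with few UMIs, such as HHEX, KIT and CACNA1B.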
